A study of Rattus norvegicus with 6 samples.

Results

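The miR-30 family of the rat kidney was read on custom vertebrate microRNA (miRNA) arrays in 3 untreated rats and 3 rats given aristolochic acid (AA). AA is a plant toxin and carcinogen that forms DNA adducts and injures the renal tubule. The members were the 5 probes whose rat name is rno-miR-30a, rno-miR-30b-5p, rno-miR-30c, rno-miR-30d or rno-miR-30e, out of 679 probes with a rat name and 5560 miRNA probes on the array. They were chosen by name, with no measured value in the rule. The passenger strands, whose names end in an asterisk or, for rno-miR-30b-3p, in -3p, were left out. All rats were male Fisher 344 animals carrying the Big Blue transgene, a bacterial reporter for scoring mutations, and were 6 weeks old at the start. AA replicates 19, 20 and 21 received 10.0 mg/kg of AA as its sodium salt by gavage, 5 times a week for 12 weeks, and were killed 1 day after the last dose. Control replicates 13, 14 and 15 were untreated. Each animal gave RNA from a piece of kidney, not sorted by cell type, for 1 array.

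A miRNA hairpin gives a pair of strands. The guide strand is loaded into an Argonaute protein and pairs with messenger RNAs through its seed, the short stretch near its 5′ end, and the passenger strand is mostly degraded. miR-30 guides are abundant in nephron epithelium, including tubule cells and podocytes, the filtering cells of the glomerulus. They are known for holding back connective tissue growth factor and the epithelial-to-mesenchymal factor Snai1, and podocytes depleted of them are injured.

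The sequences show why several probes of the family may read the same RNA: the guides share their 5′ part and differ in a few bases of the 3′ part. The mature guides found in RefSeq on rat build GRCr8 are given 5′ to 3′, with the seed (bases 2 to 8) in capitals.
rno-miR-30a: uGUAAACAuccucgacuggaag
rno-miR-30c: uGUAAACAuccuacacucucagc
rno-miR-30e: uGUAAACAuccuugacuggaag
The guides of miR-30a and miR-30e differ by C13U alone, where the first base is that of miR-30a and the position is counted from 1 at the 5′ end. On the array's target sequences, miR-30a also differed from miR-30d by 1 base and miR-30b-5p from miR-30c by 2, while every pair with 1 member of miR-30a, miR-30d and miR-30e and 1 of miR-30b-5p and miR-30c differed by 5 or 6. The family thus held a group of 3 and a group of 2 close sequences. The seed GUAAACA was present in 28 probe targets on the array, 6 of them with a rat name: the 5 members and rno-miR-384-5p. The last read at most 3.81 on any array in the authors' normalized intensity, where 32 was the study's limit for a detected probe.

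miR-30a is encoded by Mir30a on GRCr8 chr9:33233946-33233967 (+). The miR-30c guide is encoded by Mir30c2 on the same chromosome, chr9:33253695-33253717 (+), and by Mir30c1 on chr5:139634505-139634527 (-). miR-30e is encoded by Mir30e beside Mir30c1, on chr5:139637504-139637525 (-). In the RefSeq gene table Mir30c1 and Mir30e lay inside the span of Nfyc, the gene for a subunit of the CCAAT-binding factor NF-Y. Mir30c2 lay inside the spans of the pseudogene Rbx1-ps1 and of a long non-coding RNA gene, and Mir30a lay inside no other gene. The probe of miR-30c cannot tell the products of its hairpins apart, since their guides are identical. Both hairpins are shown with the strands on the array in capitals, to show that they differ in the loop and in the passenger strand.
Mir30c1: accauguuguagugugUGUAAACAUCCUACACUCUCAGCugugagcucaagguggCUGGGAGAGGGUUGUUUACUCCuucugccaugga
Mir30c2: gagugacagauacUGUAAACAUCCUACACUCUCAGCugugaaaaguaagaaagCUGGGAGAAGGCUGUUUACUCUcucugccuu
Their passenger strands differ by G9A, U12C and C22U, with the base of miR-30c-1* first, and have a probe each.

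AA replicate 20 stood apart from the other 5 arrays. Its probes were dimmer, with a mean of 149 above the level of the empty spots where the others had 263 to 484, and 66.8% of the 1132 probes tested passed the background limit there (84.9% to 97.9% elsewhere). rno-miR-122, the defining miRNA of hepatocytes, read 15191 on it in the deposited normalized intensity, against 8.17 to 48.5 on the rest. Above the empty spots the scanner recorded 2026 for it there and 18.9 to 88.8 on the rest. The probes of the same miRNA from opossum and pig, mdo-miR-122 and ssc-miR-122, read 13500 and 14646 on AA replicate 20 and at most 52.0 and 69.2 elsewhere. The chicken probe gga-miR-122b read 3.73 on AA replicate 20 and at most 2.71 elsewhere. Of 10 kidney epithelium markers, 6 were at or above 32 on all 6 arrays, AA replicate 20 included, and the other 4 (miR-215, miR-141, miR-204 and miR-211) were under 32 on all. The summed deposited intensity of the 10 ranged from 5011 to 5371 in the controls and from 5373 to 6491 in AA, where the highest sum was that of AA replicate 20. Those above the limit on every array were miR-192, miR-194, miR-200a, miR-200b, miR-200c and miR-429, known from renal and other epithelia. The identity and purity of the sample on this array are therefore in doubt, and every AA mean holds it as 1 of 3 arrays. What it contributed to each result is given by the values with and without it, and the part of the miR-122 signal in those results was not tested.

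**Figure D1:**
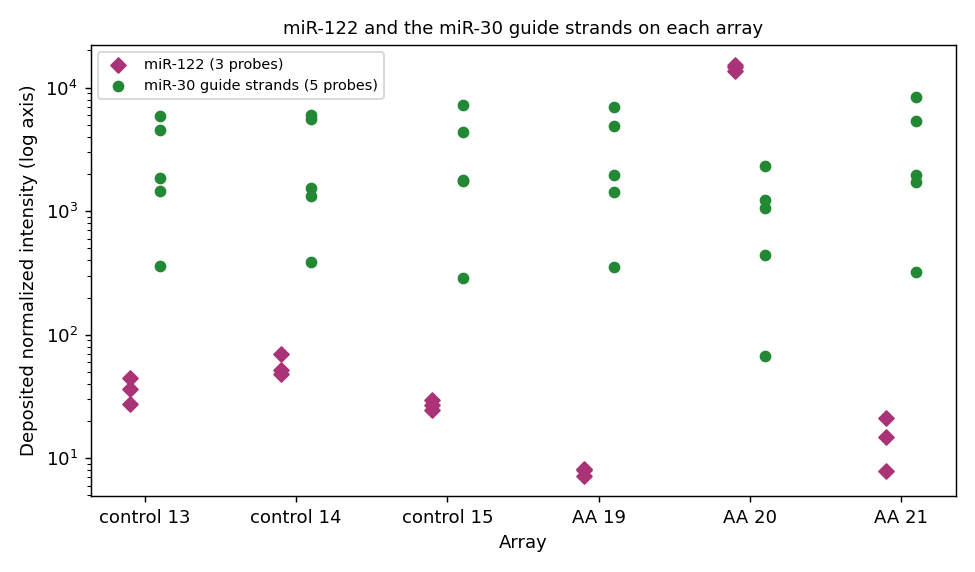
Deposited normalized intensity (log axis) of 3 miR-122 probes, of rat, opossum and pig (diamonds), and the 5 miR-30 guide-strand probes (circles) on each of the 6 arrays. The miR-122 probes sit at 13500 to 15191 on AA replicate 20 and at 69.2 or less on every other array, while the lowest miR-30 reading of the array set, 67.2 for rno-miR-30e, is also on AA replicate 20.

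All 5 guides were detected on every array, and none differed between AA and control beyond the spread of the arrays. Each was above 32 and well above background on all 6 arrays. For miR-30e on AA replicate 20 the margin was small. Its mean was 21.7 above the empty spots, against a background limit of 16.3, and its spots read 16.1 and 27.4. In the fit over all tested probes with limma, 0 of 5 passed an adjusted p of 0.05, against 0.177% of all tested probes, and 0 of 5 had an unadjusted p below 0.05, against 4.95% of all. By the methods' t-test 0 of 5 were called too (0.177% of all probes called, 4.68% before adjustment). The groups overlapped in 5 of 5, while 9.98% of all tested probes had groups that did not. The log2 change was below 0 in 5 of 5, beside 54.2% of all tested probes, with a median of -0.51 beside -0.05 over all. Without AA replicate 20 it was above 0 in 5 of 5, with a median of 0.19. In that comparison 50.4% of all tested probes and 36.1% of tested rat probes were below 0. The tested rat probes had a median of 0.14 without AA replicate 20. Without that array limma again called 0 of 5, where 0.265% of all tested probes passed the adjusted threshold and 8.13% the unadjusted one. If whole-kidney signal did change, a different number of cells that make the miRNA could not be told apart from a different amount per cell.

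miR-30a, the member of Mir30a on chromosome 9, had a deposited intensity of 1871, 1532 and 1782 in control replicates 13, 14 and 15, and of 1980, 439 and 1974 in AA replicates 19, 20 and 21. AA replicates 19 and 21 were above all 3 controls and AA replicate 20 was below all of them. On the normalized log2 scale the controls averaged 10.92 ± 0.20 and AA 10.41 ± 1.45 (SD, n = 3 each). The change was -0.51 (SE 0.67, 95% interval -2.08 to 1.06; limma adjusted p = 0.885). The interval narrowed without AA replicate 20, when the change was 0.33 (SE 0.22, 95% interval -0.19 to 0.85; adjusted p = 0.688).

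miR-30e, whose guide is 1 base away from that of miR-30a and which shares the Nfyc span with Mir30c1, was the dimmest probe of the 5. It read 362, 387 and 286 in the controls and 355, 67.2 and 321 in AA, in the same order of replicates. Apart from AA replicate 20, the AA arrays lay inside the control range of these deposited intensities. On the normalized log2 scale AA replicate 19, at 8.84, was above the highest control, at 8.81. The change was -0.59 (SE 0.53, 95% interval -1.83 to 0.66; adjusted p = 0.885), and it was 0.05 without AA replicate 20 (SE 0.20; adjusted p = 0.933).

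miR-30d was the guide least moved on AA replicate 20. Its deposited intensity was 1458, 1339 and 1746 in the controls and 1430, 1231 and 1714 in AA. AA replicate 20 was the lowest of the 6 here too, at 1.18-fold under the median of the other 5 arrays. The log2 change was -0.15 (SE 0.37, 95% interval -1.01 to 0.72; adjusted p = 0.933), and 0.19 without that array (SE 0.25; adjusted p = 0.838).

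miR-30c, made from Mir30c1 and Mir30c2, was the brightest member. Its readings were 5856, 5991 and 7280 in the controls and 6977, 2317 and 8322 in AA. AA replicate 21 was the highest array and AA replicate 20 the lowest. Its change was -0.19 (SE 0.53, 95% interval -1.43 to 1.05; adjusted p = 0.936) with all arrays and 0.43 without AA replicate 20 (SE 0.24, 95% interval -0.15 to 1.01; adjusted p = 0.673). With array quality weights, which gave AA replicate 20 the lowest weight, its change was 0.56 and its unadjusted p passed 0.05, as did that of 21.5% of all tested probes. Its adjusted p of 0.226 in that limma fit did not pass, where 3.89% of all tested probes did.

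miR-30b-5p, the closest relative of miR-30c, read 4496, 5576 and 4361 in the controls and 4927, 1065 and 5384 in AA. Both AA arrays other than replicate 20 lay within the control range of deposited intensity. On the normalized log2 scale miR-30b-5p was higher on both of them, at 12.48 each, than on any control (12.28 to 12.44). It had the largest change of the 5, at -0.65 (SE 0.63, 95% interval -2.14 to 0.83; adjusted p = 0.885). Without AA replicate 20 the change was 0.14 (SE 0.19; adjusted p = 0.851). Exact two-sided permutation of the 3 against 3 values gave p between 0.7 and 1.0 for the 5 guides, where 0.1 is the smallest p that this design allows.

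**Figure D2:**
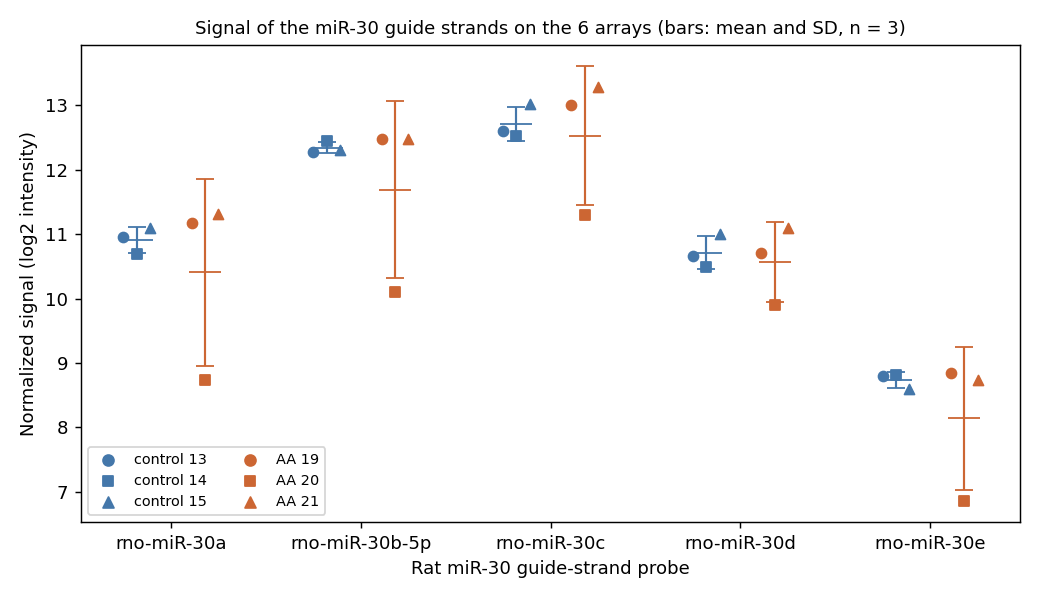
Normalized signal (log2 intensity, vertical axis) of each miR-30 guide-strand probe on the 3 control arrays (blue) and the 3 AA arrays (orange), with the mean and SD of each group (n = 3). For miR-30a the controls average 10.92 ± 0.20 and AA 10.41 ± 1.45, and in every member the lowest point is AA replicate 20.

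**Figure D3:**
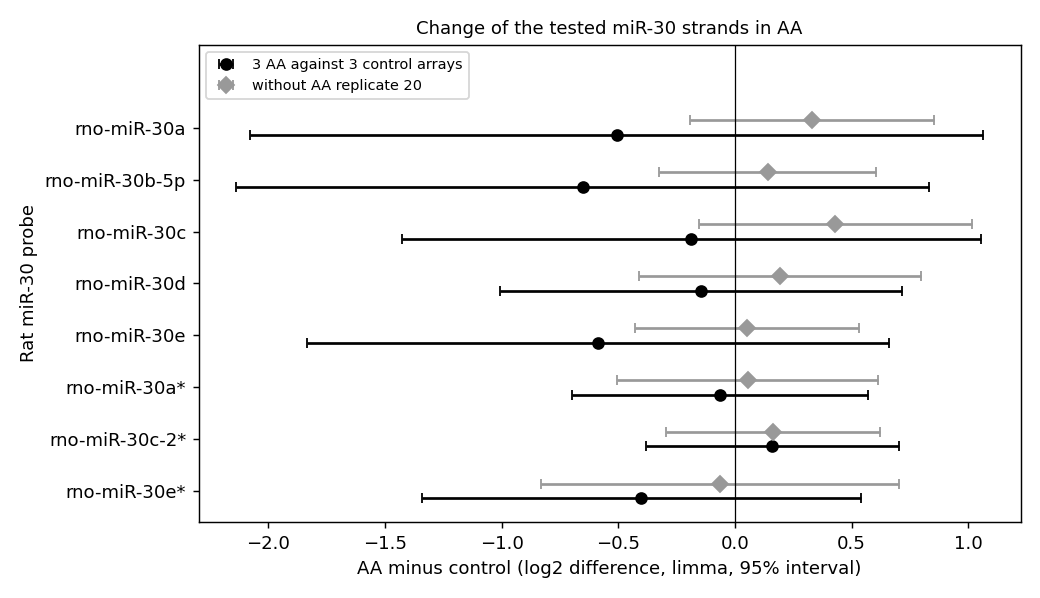
AA minus control on the log2 scale with the 95% interval from limma for the 8 miR-30 strands that were tested, with all 6 arrays (black) and without AA replicate 20 (grey). All intervals include 0, and the 5 guide strands move from -0.65 to -0.15 with all arrays to between 0.05 and 0.43 without that one.

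AA replicate 20 was the lowest array for 5 of 5 members, as it was for 46.5% of all tested probes. Against the median of the other 5 arrays, its deposited intensity was 4.26-fold lower for miR-30a, 4.63-fold lower for miR-30b-5p, 3.01-fold lower for miR-30c, 1.18-fold lower for miR-30d and 5.28-fold lower for miR-30e. On the quantile-normalized log2 scale the differences were -2.35, -2.34, -1.71, -0.82 and -1.93 in the same order. The median difference over all tested probes was -0.20. A difference at least as far below 0 was found in 3.18% of all tested probes for miR-30a, in 3.36% for miR-30b-5p, in 7.42% for miR-30c, in 22.3% for miR-30d and in 6.10% for miR-30e. Among the 350 probes at least as bright as the dimmest member these shares rose to 9.71%, 10.3%, 18.6%, 39.7% and 16.3%. The raw readings of this array were low for the family before any scaling. Above the empty spots the scanner recorded 63.8 for miR-30a, 192 for miR-30b-5p, 540 for miR-30c, 169 for miR-30d and 21.7 for miR-30e, where the lowest of the other arrays had 1737, 4601, 6877, 1641 and 224. The step between these readings and the deposited values was not the same for every array: 169 for miR-30d became 1231 on AA replicate 20, and 1641 became 1746 on control replicate 15.

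The relative level of the paralogs was next compared within each array, where a factor common to all probes of the array drops out. The background offset and the quantile step change these differences for dim probes, so part of the brightness of an array can stay in them. A difference between probes is a difference of signal, since probes differ in affinity, and is given here for how it moves between arrays. AA and control overlapped in 10 of 10 pairs, and the smallest exact permutation p was 0.2 (0.667 after adjustment over the 10 pairs). miR-30b-5p minus miR-30d had the largest change. It was 1.63, 1.95 and 1.30 in the controls and 1.76, 0.21 and 1.38 in AA on the log2 scale. The AA arrays other than replicate 20 lay within the control range, and the change of -0.51 (control 1.63 ± 0.32, AA 1.12 ± 0.81, SD, n = 3 each; exact permutation p = 0.5) became -0.05 without it.

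The sign of the difference was the same on all 6 arrays for 9 of 10 pairs. The exception was miR-30a against miR-30d, guides 1 base apart. miR-30a was above miR-30d by 0.31, 0.20 and 0.09 in the controls and by 0.46 and 0.22 in AA replicates 19 and 21, and was below it by a log2 difference of -1.16 in AA replicate 20. On that array miR-30a minus miR-30b-5p, at -1.37, and miR-30c minus miR-30e, at 4.43, lay within the range of the other arrays (-1.75 to -1.16 and 3.71 to 4.55). They were the only pairs of the 10 to do so. miR-30c minus miR-30d was 1.40 there, against 1.95 to 2.29 on the other arrays. The pair closest to its range, miR-30a minus miR-30e, was 1.87 against 1.89 to 2.59. On AA replicate 20 the members farthest below the median of the other arrays were miR-30a, miR-30b-5p and miR-30e. They had 9 or 10 G and C bases in their targets, and miR-30d had 11. miR-30c has 10 as well, in a target of 23 bases where the other 4 have 22. With 5 targets this is a description. The dog probes for the same guides did not follow the count of G and C bases. cfa-miR-30a had 11 and a difference of -1.94, cfa-miR-30c 10 and -0.85, and cfa-miR-30d 12 and -0.82.

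**Figure D4:**
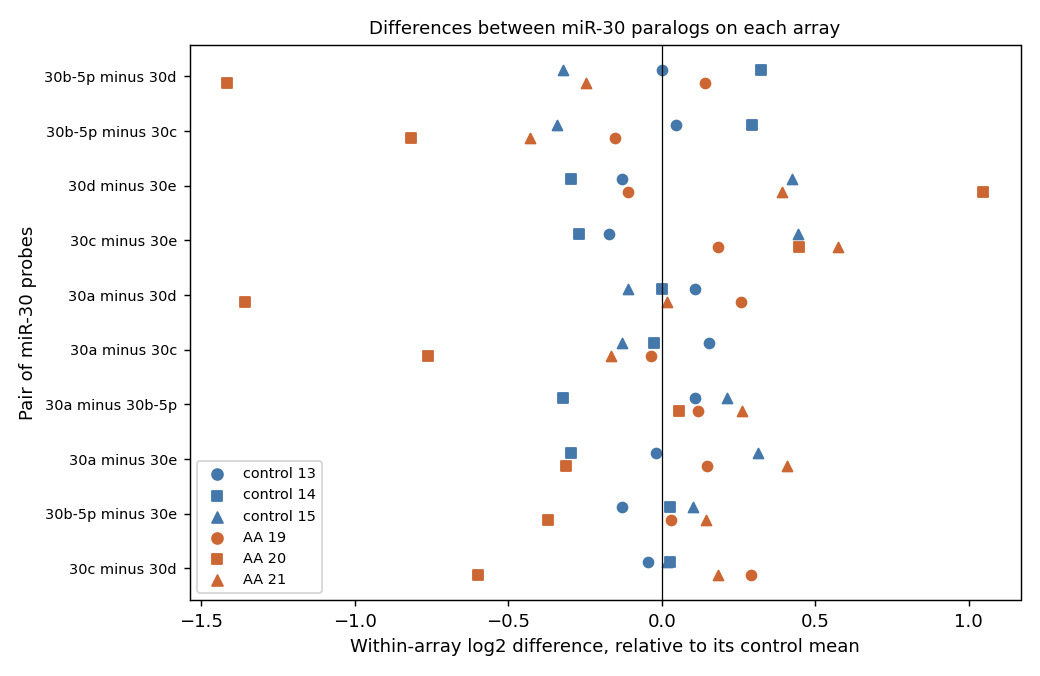
Within-array log2 difference of each of the 10 pairs of miR-30 guide probes, plotted relative to its mean over the 3 control arrays (horizontal axis), for control (blue) and AA (orange) arrays. Groups overlap in all pairs, and the points farthest from the rest are those of AA replicate 20, such as miR-30a minus miR-30d at -1.16 where the control mean is 0.20.

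The passenger strands come from the same hairpins and were dimmer. Of 6 with a rat name, miR-30a*, miR-30c-2* and miR-30e* reached 32 on at least 1 array and were tested, and miR-30b-3p, miR-30c-1* and miR-30d* were under 32 on all 6. In limma 0 of 3 passed the adjusted threshold (0.177% of all tested probes) and 0 of 3 had an unadjusted p below 0.05 (4.95% of all). By the methods' t-test 0 of 3 were called (0.177% of all, 4.68% before adjustment). The passengers that RefSeq holds are given with bases 2 to 8 in capitals, to show that they carry other seeds than the guides and that the hairpins of miR-30c share theirs.
rno-miR-30a*: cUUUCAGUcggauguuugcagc
rno-miR-30c-1*: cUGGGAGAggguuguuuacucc
rno-miR-30c-2*: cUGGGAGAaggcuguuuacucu
miR-30a* read 142, 171 and 109 in the controls and 131, 87.6 and 132 in AA, a log2 change of -0.06 (SE 0.27; limma adjusted p = 0.944). On AA replicate 20 it was 1.51-fold under the median of the other arrays, where the guide of the same hairpin was 4.26-fold under it.

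miR-30c-2* was the 1 of 3 tested passengers whose groups did not overlap, and AA was higher, as in 4.42% of all tested probes. The deposited intensities, 36.2, 35.0 and 43.6 in the controls and 41.5, 39.5 and 47.6 in AA, did overlap, and the separation was seen on the quantile-normalized log2 scale, at 6.78, 6.72 and 6.76 against 6.86, 6.91 and 6.98. The change was 0.16 (SE 0.23; limma adjusted p = 0.885; exact permutation p = 0.1), with signal near the limit of 32. miR-30e* read 112, 106 and 46.9 in the controls and 97.2, 5.53 and 54.2 in AA, and was well above background on 5 of the 6 arrays. Its change was -0.40 (SE 0.40; limma adjusted p = 0.885), and -0.06 without AA replicate 20.

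A further 20 probes carried a miR-30 guide name of other species only, and 19 of them were tested. They sit on other spots, so they show how readings differ between probes for the same or a close sequence. Of the 19, 10 had a target with no base that differs from a rat guide apart from bases added or missing at the 3′ end, and 9 had 1 or more differing bases. All 19 had a change below 0 (-1.45 to -0.12), as did 54.2% of all tested probes. In limma 0 of 19 passed the adjusted threshold (0.177% of all) and 0 of 19 the unadjusted one (4.95% of all). Without AA replicate 20 the change was below 0 in 9 of 19, beside 50.4% of all tested probes. The groups failed to overlap in 2 of 19, both lower in AA, beside 5.57% of all tested probes. These were the lamprey probes pma-miR-30d and pma-miR-30b, each 1 base away from rat guides and neither well above background on AA replicate 20.

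Targets of different length for the same guide had different readings, in the order of length for miR-30e and miR-30a and not for the other guides. For miR-30e the following targets are nested, and the capitals mark bases beyond the rat guide, which match the hairpin of Mir30e.
gga-miR-30e: uguaaacauccuugacugg
oan-miR-30e: uguaaacauccuugacuggaagC
bta-miR-30e-5p: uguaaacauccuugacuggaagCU
As medians of the 5 arrays other than AA replicate 20, the deposited intensity was 40.6 for the target of 19 bases, 355 for the rat guide of 22 bases, 574 for that of 23 bases and 1403 for that of 24 bases. On AA replicate 20 the targets of 22, 23 and 24 bases were 5.28-fold, 6.87-fold and 4.01-fold lower than those medians. The target of 19 bases was not well above background there, so no fold is given for it. Those of 22 and 23 bases were little above the background limit of 16.3, at 21.7 and 21.9 above the empty spots. On the normalized log2 scale the differences were -0.62, -1.93, -2.45 and -2.23 from the shortest to the longest target.

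The nested targets of miR-30a showed the same order, and their extra bases also match the rat hairpin.
cfa-miR-30a: uguaaacauccucgacuggaagC
bta-miR-30a-5p: uguaaacauccucgacuggaagCU
Their medians were 1871 at 22 bases, 2122 at 23 and 3142 at 24, and the drop on AA replicate 20 shrank from 4.26-fold to 3.00-fold and 1.83-fold. For miR-30c the medians were 8092 for dre-miR-30c at 22 bases, 6977 for the rat guide at 23 and 9040 for cfa-miR-30c at 24, with drops of 2.69-fold, 3.01-fold and 1.92-fold, so the order was not that of length there. For miR-30d they were 1458 at 22 bases, 1400 for oan-miR-30d at 23 and 2410 for cfa-miR-30d at 24, with drops of 1.18-fold, 1.55-fold and 1.55-fold. A size for the low reading of a family member on AA replicate 20 therefore depended on which of its probes was read. ggo-miR-30b, a target of 21 bases inside miR-30b-5p, read 7234 as a median where the rat probe of 22 bases had 4927, with a change of -1.18 that stayed at -0.83 without AA replicate 20. Its pair of spots on AA replicate 21 differed, at 269 and 9447 above the empty spots.

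Targets with a differing base were read as well, and their median difference on AA replicate 20 was farther below 0. The following targets were, with bta-miR-30f, the brightest of them. They differ from the rat guide of miR-30c at the base in capitals.
fru-miR-30c: uguaaacauccuacacucucGg
pma-miR-30g: uguaaacauccuUcacucucagc
pma-miR-30f: uguaaacaCccuacacucucagc
The substitutions against the rat guide were A21G, A13U and U9C, with the rat base first. Their medians on the other 5 arrays were 6324, 6208 and 3836, where the matching rat probe had 6977, and the drops on AA replicate 20 were 4.23-fold, 6.11-fold and 9.49-fold. The cattle probe bta-miR-30f, which also carries U9C, had a median of 3865, above that of pma-miR-30f, and a drop of 6.48-fold. On the normalized log2 scale AA replicate 20 lay below the median of the other arrays by -2.45 to -0.62 (median -1.27) over the 10 targets with no differing base and by -3.60 to -0.49 (median -2.85) over the 9 with 1 or more. On that array 1 of these 10 and 3 of these 9 were not well above background, so their differences are bounded by the floor of the scale. The targets share most of their bases and the same RNA, so these ranges are a description. How much of the reading of a member comes from its close relatives was not measured.

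**Figure D5:**
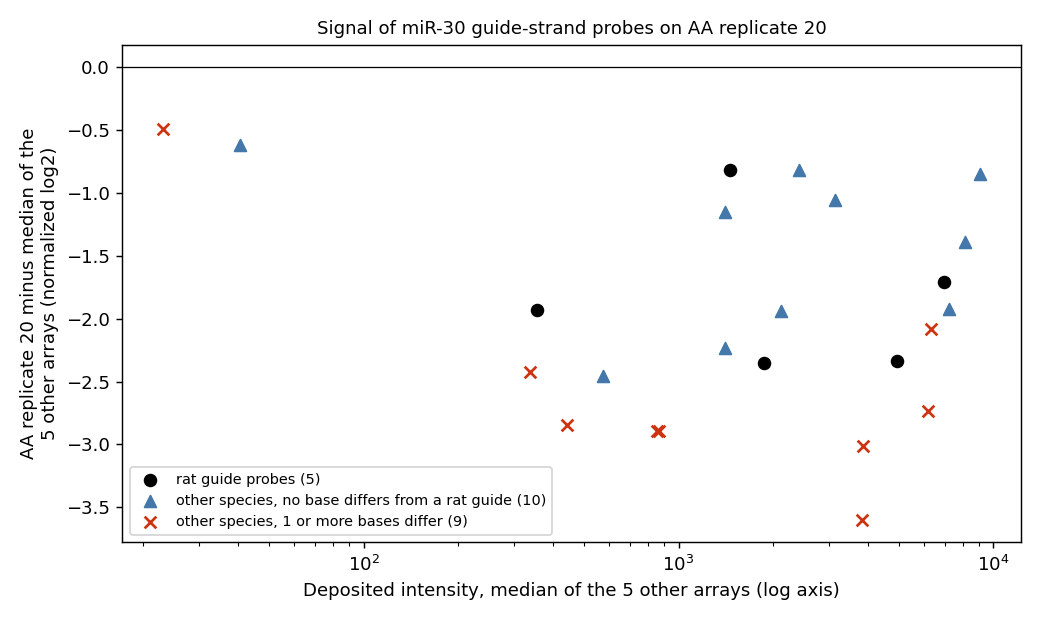
AA replicate 20 minus the median of the other 5 arrays (normalized log2, vertical axis) against the median deposited intensity of those arrays (log axis) for the 24 tested miR-30 guide probes. All points lie below 0, with a median of -1.27 for the 10 other-species targets with no differing base and of -2.85 for the 9 with 1 or more.

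Among 172 tested rat probes outside the family, the profile over the 6 arrays most like the centred mean of the 5 guides was that of miR-99a, with a root-mean-square difference of 0.13 on the log2 scale. miR-126, an endothelial miRNA, followed at 0.15 and miR-92b at 0.16, where the median of the compared probes was 0.64. The members themselves lay at 0.16 for miR-30c, 0.17 for miR-30e, 0.21 for miR-30a, 0.22 for miR-30b-5p and 0.35 for miR-30d. The mean profile that chose these probes was itself low on AA replicate 20, so that they were low there follows from the choice. Their log2 differences on that array were -2.14 for miR-99a, -1.62 for miR-126 and -1.60 for miR-92b. The 6 tested kidney epithelium markers had a median difference of -0.24 on that array and lay on both sides of 0. The differences were -1.15 for miR-194, -0.77 for miR-192, -0.63 for miR-429, 0.15 for miR-200b, 0.34 for miR-200c and 0.67 for miR-200a. That of miR-194 was farther below 0 than that of miR-30d, at -0.82. How these markers compare with the miR-30 members was not tested.

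In the comparison of AA with control, 0 of the 6 tested kidney epithelium markers passed the adjusted threshold in limma (0.177% of all tested probes). An unadjusted p below 0.05 was found for 1 (4.95% of all), and 3 had groups that did not overlap (9.98% of all). Of the 6, 3 were lower in AA, and the median change was 0.15, or 0.28 without AA replicate 20. The fibroblast and myofibroblast markers miR-199a-5p, miR-199a-3p and miR-214 had changes above 0 in 3 of 3, with a median of 0.72. In limma 0 of 3 passed the adjusted threshold (0.177% of all tested probes) and 2 of 3 had an unadjusted p below 0.05 (4.95% of all). The groups of 2 of 3 did not overlap (9.98% of all). Their summed deposited intensity ranged from 1270 to 1566 in the controls and from 1931 to 3331 in AA, where the highest sum was that of AA replicate 20. On AA replicate 20 miR-199a-5p read 20.5, below the controls (38.4 to 42.5), and miR-199a-3p read 1047, above them (395 to 477). These are marker signals, and neither cell makeup nor its part in the miR-30 values was tested.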

How the data were processed

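Kidney RNA of 6 rats was size-fractionated, tailed, tagged, hybridised and stained with Cy3, with 1 array per animal. Replicate numbers were not shared between groups, so no animals were paired, and no label names a slide or scan batch. The scanner files deposited by the authors hold median pixel intensity of each spot on a linear scale, with no background correction. A second deposited table gives the authors' normalized intensity, made per their methods by background subtraction and a LOWESS filter, with a limit of 32 for detection.

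Scanner intensity was corrected with normexp (offset 50), and the log2 signal of the miRNA probes was quantile-normalized and averaged over the spots of a probe. Probes at or above a deposited intensity of 32 on at least 1 array (1132 of 5560) were tested with limma 3.58.1 under R 4.3.3, lmFit and eBayes, with Benjamini-Hochberg adjustment over all of them and a threshold of 0.05. A probe was well above background when it passed the median of the empty spots by 3 robust SDs. The number of arrays and the signal over background limit the precision. The members, lists and tests were chosen with earlier results of these data known. Named were all members and rat passenger strands, the 3 rat probes nearest in profile, other-species targets with no differing base or the brightest with one, and the pair with the largest change. bta-miR-30f, pma-miR-30f, the lamprey probes named for groups that did not overlap, the miR-122 probes and markers other than those rules cover were named after their values were seen. Sequences came from RefSeq (GRCr8) and from the array files. Cell type markers were miRNA lists for kidney epithelium, endothelium, smooth muscle, fibroblasts, leukocytes, erythroid cells, liver, muscle and brain. Alternatives covered background correction, normalization, the deposited values, the filter on dim probes, the test, array weights, averaging of spots and leaving out each array. The code was tested on simulated data.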

Additional observations from a re-analysis of the deposited data

Results flagged for a closer look

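rno-miR-122 had a deposited intensity of 15191 on AA replicate 20 and at most 48.5 on any other array. It was picked out because it is a liver marker, lies outside the comparison of the miR-30 members and exceeded its level in the control samples, which was 24.6 to 48.5. The same array held the lowest reading of all 5 miR-30 guides. Whether the miR-122 signal and the low miR-30 readings have anything to do with each other was not tested.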

How the results depend on the processing

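Under 18 alternatives 0 guides and 0 passenger strands passed the adjusted threshold in every one. The count over all tested probes, 2 as reported, was 0 with cyclic loess, median scaling or no normalization, 44 with array quality weights, and 0 to 3 when single arrays were left out (3 without AA replicate 20). The median change of all tested probes was 0.09 with median scaling and -0.32 with no normalization, and the 5 members were below 0 under both. The direction of the members rested on AA replicate 20. Leaving out 1 array at a time gave -0.96 to 0.33 for miR-30a, -1.05 to 0.14 for miR-30b-5p, -0.56 to 0.43 for miR-30c, -0.41 to 0.19 for miR-30d and -0.94 to 0.052 for miR-30e. The highest value of each was the one without AA replicate 20. With array quality weights miR-30a was at 0.37, miR-30c at 0.56 and miR-30d at 0.39, while miR-30b-5p at -0.0028 and miR-30e at -0.12 were still below 0. The number of paralog pairs whose groups did not overlap, 0 as reported, was 0 to 4 in these fits (4 without control replicate 15, 3 without AA replicate 19 and 1 without AA replicate 20). Groups separate more readily with 1 array fewer, and the pairs are built from the same 5 probes, so these counts are a description. No paired analysis was possible because the groups share no replicate numbers, and the planned slide or scan block could not be fitted, since neither labels nor files give one.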

Other observations

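The other marker lists gave these values, with no link to the miR-30 members tested. In limma 0 members passed the adjusted threshold in any list, beside 0.177% of all tested probes. An unadjusted p below 0.05 was found for 2 of 3 fibroblast markers and 1 of 6 kidney epithelium markers, beside 4.95% of all tested probes. The endothelial marker miR-126 had a change of -0.28, or 0.34 without AA replicate 20. The smooth muscle markers miR-143 and miR-145 had a median change of 0.07. Of 4 leukocyte markers with a rat probe, miR-150 alone was tested, with a change of 0.34, and miR-142-3p, miR-142-5p and miR-223 were under 32 on all arrays. Of the erythroid markers miR-451 was tested, with a change of -0.34. Of 4 muscle markers 3 were under 32 on all arrays, and miR-206, with a change of -0.31, was at or above 32 on all 6. Both brain markers, miR-124 and miR-9, were under 32 throughout.

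Candidate_551, a custom probe of the study that carries the miR-30 seed, read 297 to 639 on the 5 other arrays and 8.48 on AA replicate 20.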
